A study of Homo sapiens with 6 samples.

Results

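The small, or 40S, subunit of the ribosome reads mRNA and matches it to transfer RNA. It holds the 18S ribosomal RNA and a fixed set of proteins, each made from its own mRNA, so their transcripts are made in step with ribosome production in growing cells. The 28 genes described here are those on a list of 40S protein symbols, matched by symbol to the rows of a table of 25662 genes. All 28 were found, and their sums below stand for these 28 genes and not for every protein of the subunit. RNA was sequenced from A375, an established human melanoma cell line, after 24 hours with BMH-21 at 1 µM (3 libraries) and with DMSO, the solvent (3 control libraries). BMH-21 intercalates into DNA and inhibits RNA polymerase I, the enzyme that transcribes the precursor of 18S ribosomal RNA. The titles of the control libraries give time 0 while the treatment text speaks of DMSO, so how long these cells had been in DMSO is uncertain. Both groups grew in DMEM with fetal bovine serum and are of this 1 line. The submitters call the libraries of a group biological replicates, and nothing states that the cultures were separate, so the spread between them may be partly technical.

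Ribosomal RNA and ribosomal proteins meet in the nucleolus, where the 40S precursor is built before export and final maturation in the cytoplasm. Ribosomal protein mRNAs typically begin with a C followed by an unbroken run of pyrimidines, the terminal oligopyrimidine or TOP start, through which mTOR and the RNA-binding protein LARP1 control their translation and stability. Several 40S genes are mutated in Diamond-Blackfan anaemia, an inherited failure of red cell production. TPM, the unit of the deposited values, is a transcript's share of its library per unit of length. A value therefore also depends on the RNA of all other genes, and fewer cells of a kind cannot be told apart from less RNA per cell. Below, ± gives the SD of 3 libraries for TPM and shares and the standard error for log2 changes.

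To show what the members share at their starts, 30-base windows from RefSeq (GRCh38.p14) are given for 4 genes whose transcripts fell, 4 that were higher or gained share, and 2 without a TOP start. Each holds 15 bases before the annotated start and 15 from it, 5′ to 3′ on the gene's strand. Capitals mark the TOP run, read as a C lying within 5 bases of the annotated start and followed by at least 4 bases that are each C or T, on the gene's strand only.
RPS9 (chr19:54200843-54200872, plus strand): gtggcgcttccgcgCCTCTTTCTCagtgac
RPS10 (chr6:34426055-34426084, minus strand): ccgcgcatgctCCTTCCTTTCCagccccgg
RPSA (chr3:39406705-39406734, plus strand): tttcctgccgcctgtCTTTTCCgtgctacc
RPS14 (chr5:150449725-150449754, minus strand): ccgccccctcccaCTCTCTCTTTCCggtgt
RPS24 (chr10:78033848-78033877, plus strand): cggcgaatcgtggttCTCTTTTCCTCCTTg
RPS23 (chr5:82278340-82278369, minus strand): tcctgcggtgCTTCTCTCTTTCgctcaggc
RPS27 (chr1:153990747-153990776, plus strand): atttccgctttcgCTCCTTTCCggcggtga
RPS6 (chr9:19380222-19380251, minus strand): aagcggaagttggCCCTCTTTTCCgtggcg
RPS15 (chr19:1438381-1438410, plus strand): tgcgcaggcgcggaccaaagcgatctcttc
RPS26 (chr12:56041903-56041932, plus strand): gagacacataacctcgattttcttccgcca
A single RefSeq start was matched for 23 of the 28 genes. The run was found in 19 of these 23 genes, or 82.6%, against 23.0% of 6994 genes that average 1 TPM or more and have a single start. Runs were 7 to 15 bases long. The 4 genes without a match were RPS4X, RPS15, RPS26 and RPS29, and no match says only that these letters are not at the annotated start. RPS9 and RPS24, which lie at opposite ends of the changes below, carry runs of 10 and 14 bases.

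The 28 transcripts together did not separate the groups, while the make-up of the set did. They held 9.67, 8.71 and 9.88% of the TPM in BMH-21 libraries 1 to 3, against 9.42, 12.2 and 10.0% in control libraries 1 to 3. The groups overlapped, and control library 2 was the highest of the 6. Means were 9.42 ± 0.624% with BMH-21 and 10.6 ± 1.49% in controls (SD, n = 3 each). The log2 difference of the summed TPM was -0.16, and -0.05 without control library 2. The 47 tested proteins of the large, or 60S, subunit held 14.5, 13.3 and 14.7% with BMH-21, against 14.7, 18.7 and 15.7% in controls. The 40S sum divided by the 60S sum was 0.669, 0.655 and 0.674 with BMH-21, against 0.639, 0.655 and 0.638 in controls. That ratio was 1.03 times as high with BMH-21, and the groups overlapped only through library 2 of each. Without RPS27, the most abundant member, the log2 difference of the ratio was 0.01 in place of 0.05.

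**Figure D1:**
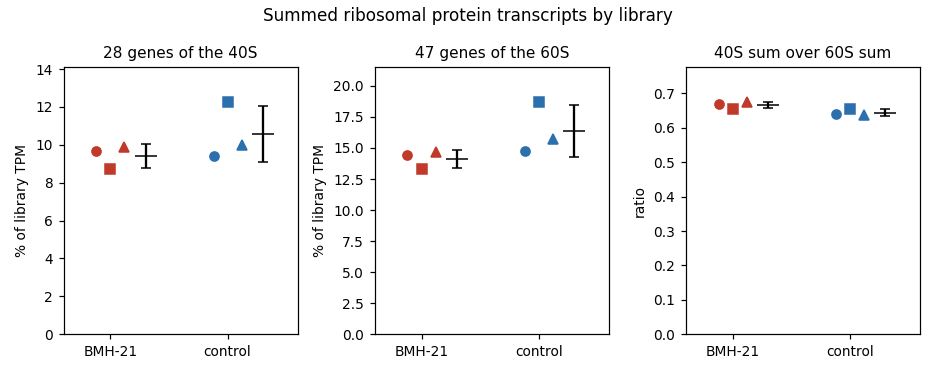
Summed transcripts of the 28 genes of the 40S subunit and 47 genes of the 60S subunit as a percentage of each library's TPM, and the ratio of the sums, with a point per library (circle, square and triangle for replicates 1, 2 and 3) and the mean ± SD beside it. The control square, library 2, stands above the other 5 libraries in both sums, and the ratio runs from 0.638 to 0.674 over the 6 libraries.

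Control library 2 stood apart, with mitochondrial transcripts at 7.61% of its TPM and 40S transcripts at 12.2%. Mitochondrial transcripts lay between 10.9 and 14.6% in the other 5 libraries. The part of this difference in the members' values was not tested beyond leaving the library out. The library has the highest 40S sum, so leaving it out, here and below, raises the change of that sum by construction. Of 9 melanocytic lineage markers, SOX10, S100A1 and S100B were abundant. SOX10 was at 654 ± 52.4 TPM with BMH-21 and 540.5 ± 126 TPM in controls (limma adjusted p = 0.196). S100A1 and S100B averaged 411 and 111 TPM with BMH-21, against 317 and 77.5 TPM in controls, and both rose (limma adjusted p = 0.0134 and 0.00171). PMEL, near the floor of testing, averaged 1.70 TPM with BMH-21 and 0.809 TPM in controls and rose (limma adjusted p = 0.0186), and MITF lay between 0.979 and 1.82 TPM. MLANA was listed at 0 in all 6 libraries, and TYR, DCT and TYRP1 reached at most 0.487 TPM. The part of these markers in the members' changes was not tested. KRT14, at 2.70 to 5.21 TPM, was the highest of 6 markers of keratinocytes, leukocytes, endothelium and epithelium. Sequencing depth cannot be read from TPM and is unknown.

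Taken one by one, 9 of the 28 transcripts fell, 1 rose and 18 did not pass the test (limma on log2(TPM + 1), adjusted p under 0.05 over 12481 genes). The share that fell was 32.1% of the members, against 12.9% of all genes tested. The share that rose was 3.57%, against 23.3%. RPSA, RPS2, RPS3, RPS9, RPS10, RPS14, RPS16, RPS18 and FAU fell, and RPS6 rose. The values of BMH-21 and control libraries did not overlap for 12 lower and 2 higher members, where 17.3% and 35.0% of all genes did the same. The median log2 change was -0.07 over the members and 0.19 over all genes tested. The log2 changes printed here are differences in TPM as deposited and are not centred on that all-gene median. With median-of-ratios scaling the medians were -0.27 and 0.02, 10 members fell and none rose (0 at an unadjusted p under 0.05 as well). Of 12452 genes tested with that scaling, 1879 rose and 2375 fell. RPS6 was then at an adjusted p of 0.621 by limma. Without control library 2, 9 members rose and 8 fell, which added RPS4X, RPS7, RPS12, RPS23, RPS24, RPS25, RPS27 and RPS27A to the rises and took FAU from the falls. Of 12581 genes tested without that library, 2818 rose and 1991 fell. With each other library left out in turn, fewer members rose. They numbered 0, 2 and 0 without BMH-21 library 1, 2 or 3, and 1 and 0 without control library 1 or 3.

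**Figure D2:**
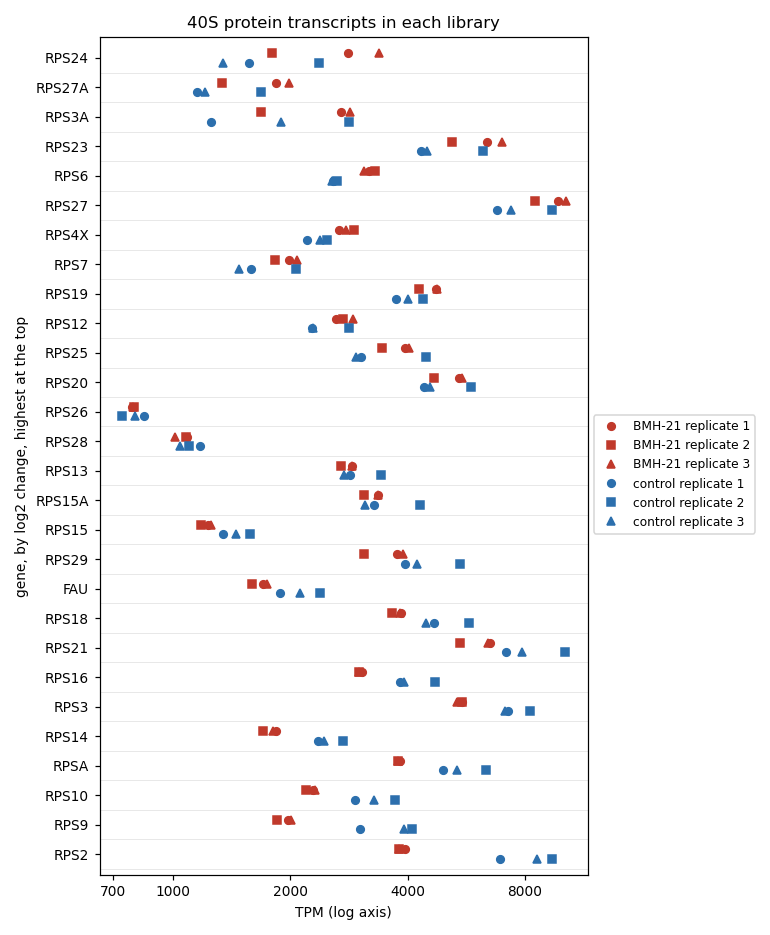
TPM of each of the 28 transcripts in each library on a log axis, with BMH-21 libraries in red above control libraries in blue, and genes ordered by log2 change. At the bottom, all 3 BMH-21 values of RPS2 lie between 3797 and 3943 TPM and all 3 controls between 6887 and 9389 TPM, while at the top the groups of RPS24 overlap through control library 2.

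RPS2 and RPS9 had the largest falls. RPS2, which sits at the channel through which mRNA enters the subunit, was at 3943, 3797 and 3811 TPM in BMH-21 libraries 1 to 3, against 6887, 9389 and 8597 TPM in control libraries 1 to 3. Every BMH-21 library lay below every control library, and the level fell to 3850.2 ± 80.3 TPM in BMH-21 libraries, against 8291 ± 1279 TPM in controls (ratio 0.464, log2 change -1.09 ± 0.13, limma adjusted p = 4.93e-04). RPS2 (chromosome 16, 1962052 to 1964860, GRCh38) has processed pseudogenes, copies of its mRNA in the genome, and reads can be split between them. The highest, RPS2P5, was at 506, 490.2 and 462 TPM with BMH-21, against 807, 1099 and 1057 TPM in controls, and RPS2P46 was at 47.4 ± 2.27 TPM with BMH-21 and 99.2 ± 15.2 TPM in controls. Both fell like RPS2 (log2 change -1.01 and -1.04, limma adjusted p = 6.30e-04 and 5.29e-04), and the sum of RPS2 and its pseudogenes gave a ratio of 0.467. The third-highest pseudogene of any member, RPS27P3, stayed between 12.4 and 22.6 TPM, and for the other 27 members pseudogenes added up to less than 3% of the gene's own TPM in any library.

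RPS9, a neighbour of RPS2 at the entry channel, was at 1975, 1845 and 2005 TPM with BMH-21, against 3028, 4102 and 3919 TPM in controls. It was lower in all 3 BMH-21 libraries (log2 change -0.91 ± 0.13, limma adjusted p = 0.00118). RPS3, the third protein of the entry and also described as a DNA repair enzyme, was at 5510.1, 5526 and 5345 TPM with BMH-21, against 7232, 8252 and 7131 TPM in controls. Its fall was smaller (log2 change -0.46 ± 0.10, limma adjusted p = 0.00947), and was not called without BMH-21 library 1 or 3 (largest adjusted p 0.0549). The falls of RPS2 and RPS9 were called whichever library was left out (largest adjusted p 0.00457 and 0.00803 by limma).

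On the platform and the side where mRNA leaves, changes were unlike. RPSA, which sits between head and body and is also known as the laminin receptor, was at 3829, 3785 and 3779 TPM with BMH-21, against 4926, 6359 and 5348 TPM in controls. The BMH-21 libraries had an SD of 27.3 TPM and all lay below the controls (log2 change -0.54 ± 0.11, limma adjusted p = 0.00826). RPS14, a platform protein whose gene is lost in the 5q- form of myelodysplastic syndrome, was at 1840.4, 1703 and 1803 TPM with BMH-21, against 2361, 2727 and 2440.0 TPM in controls. It fell (log2 change -0.49 ± 0.09, limma adjusted p = 0.00482). RPS21, which binds RPSA, was at 6509, 5464 and 6439.7 TPM with BMH-21, against 7161, 10128 and 7877 TPM in controls. No value overlapped, but the test was missed (adjusted p = 0.0514 by limma), with the control values spread by 1548 TPM (SD). RPS26, which touches mRNA upstream of the start codon, was at 784, 795 and 788 TPM with BMH-21, against 841, 739 and 801 TPM in controls. RPS28, its neighbour at the exit, was at 1085, 1080.3 and 1009 TPM with BMH-21, against 1172, 1100.0 and 1042 TPM in controls. Groups overlapped for RPS26 and RPS28, with log2 changes of -0.01 and -0.06, and these are the members with the lowest TPM along with RPS15.

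In the head, 4 of 12 listed members fell (RPS3, RPS10, RPS16 and RPS18) and none rose, also at an unadjusted p under 0.05 (limma, median log2 change -0.16). Without control library 2, 3 rose and 4 fell. Over all genes tested 23.3% rose and 12.9% fell, and without that library 2818 of 12581 rose and 1991 fell. RPS10, a target of the ubiquitin ligase ZNF598 when ribosomes collide, was at 2286, 2197 and 2317 TPM with BMH-21, against 2931, 3722 and 3280.3 TPM in controls. It fell (log2 change -0.54 ± 0.11, limma adjusted p = 0.00619). RPS16, whose tail reaches the tRNA in the P site, was at 3058, 2997 and 2997 TPM with BMH-21, against 3831, 4718 and 3921 TPM in controls. It was lower in all BMH-21 libraries (log2 change -0.46 ± 0.11, limma adjusted p = 0.0121). RPS18, which forms bridges to the large subunit, was at 3858, 3658 and 3827 TPM with BMH-21, against 4689, 5759 and 4463 TPM in controls. RPS18 fell as well (log2 change -0.39 ± 0.12, limma adjusted p = 0.0342). The call of RPS18 was lost when any 1 BMH-21 library was left out and that of RPS16 without BMH-21 library 1 or 3 (largest adjusted p 0.104 and 0.0549). RPS15, a protein near the tRNA sites, was at 1229, 1180.1 and 1249 TPM with BMH-21, against 1347, 1578 and 1455 TPM in controls. RPS29, a small zinc-binding protein, was at 3760.2, 3094 and 3889.6 TPM with BMH-21, against 3939, 5439 and 4230.5 TPM in controls. For both, all BMH-21 values were lower and the test was missed, at log2 changes of -0.26 and -0.33 (limma adjusted p = 0.0540 and 0.113).

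Other head proteins had higher means with BMH-21 without passing the test. RPS19, the gene most often mutated in Diamond-Blackfan anaemia, was at 4722, 4279 and 4766 TPM with BMH-21, against 3734, 4382 and 3999 TPM in controls. Only control library 2 reached into the BMH-21 range (log2 change 0.19 ± 0.10, limma adjusted p = 0.188). RPS12, a protein of the beak, RPS20, also a target of ZNF598, and RPS25, which several viral mRNAs need to recruit the subunit, had log2 changes of 0.17, 0.08 and 0.15. In each of them control library 2 lay above at least 1 BMH-21 library. Without control library 2, RPS12 and RPS25 rose (limma adjusted p = 0.0265 and 0.0259), while RPS19 and RPS20 did not pass (0.0558 and 0.125).

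Members of the body were split between falls and higher values. Of 16 body and platform genes, 5 fell and 1 rose (median log2 change -0.05), while 4 fell and 6 rose without control library 2. Over all genes tested 12.9% fell and 23.3% rose, and without that library 1991 of 12581 fell and 2818 rose. RPS6, the substrate of the S6 kinases, was at 3181, 3296 and 3098 TPM with BMH-21, against 2579, 2633 and 2557 TPM in controls. All BMH-21 libraries were above all controls (log2 change 0.30 ± 0.08, limma adjusted p = 0.0236), and leaving out any 1 BMH-21 library or control library 3 ended the call (largest adjusted p 0.111). RPS4X, encoded on the X chromosome, was at 2674, 2914 and 2783 TPM with BMH-21, against 2203, 2478 and 2385 TPM in controls. The groups did not overlap and the test was missed (adjusted p = 0.0652 by limma).

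RPS24, another Diamond-Blackfan gene, showed the widest spread between libraries together with RPS3A. RPS24 was at 2819, 1796 and 3377 TPM with BMH-21, against 1566, 2369 and 1342 TPM in controls. BMH-21 library 2 was below control library 2, and the difference did not pass (log2 change 0.59 ± 0.27, limma adjusted p = 0.118). RPS3A, a body protein on the solvent side, was at 2697, 1687 and 2849 TPM with BMH-21, against 1252, 2827 and 1896 TPM in controls. Its groups overlapped across most of their range (log2 change 0.32 ± 0.30, limma adjusted p = 0.436). RPS23, which reaches into the decoding centre, was at 6412, 5212 and 6969.8 TPM with BMH-21, against 4321, 6248 and 4499.9 TPM in controls. Here too BMH-21 library 2 was below control library 2 (log2 change 0.31 ± 0.17, limma adjusted p = 0.184). With both libraries numbered 2 left out, RPS24, RPS3A and RPS23 rose, with log2 changes of 1.09, 0.85 and 0.60 (limma adjusted p = 9.20e-04, 0.0109 and 0.00271). These libraries held the lowest BMH-21 value and the highest control value of each of these genes. Leaving both out therefore raises the changes by construction, and the calls are no separate evidence of a rise.

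RPS27, the member with the highest TPM over the 6 libraries, was at 9726, 8493 and 10175 TPM with BMH-21, against 6799, 9385 and 7375 TPM in controls. Control library 2 overlapped the BMH-21 values (log2 change 0.28 ± 0.15, limma adjusted p = 0.167), and without it RPS27 rose (adjusted p = 0.0198). Its paralog RPS27L, a closely similar protein from a separate gene that is known to respond to DNA damage, was at 716, 459 and 818 TPM with BMH-21, against 135, 182 and 122 TPM in controls. RPS27L rose to 4.55 times the control level (log2 change 2.16 ± 0.23, limma adjusted p = 2.69e-04), and BMH-21 library 2 had the lowest of the 3 treated values for both genes. RPS7, which can bind MDM2, was at 1982, 1833 and 2085 TPM with BMH-21, against 1589, 2074 and 1474 TPM in controls (log2 change 0.21 ± 0.14, limma adjusted p = 0.245), with control library 2 inside the BMH-21 range. RPS13 and RPS15A, both body proteins that bind 18S ribosomal RNA, had log2 changes of -0.09 and -0.11, with overlapping groups.

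A pair of members is made as fusions, with ubiquitin (RPS27A) or a ubiquitin-like protein (FAU) cut off after translation. RPS27A was at 1841, 1334 and 1985 TPM with BMH-21, against 1149, 1683 and 1211 TPM in controls. The groups overlapped through control library 2 and BMH-21 library 2 (log2 change 0.35 ± 0.19, limma adjusted p = 0.176). FAU was at 1706, 1593 and 1747 TPM with BMH-21, against 1879, 2389 and 2118 TPM in controls. FAU fell (log2 change -0.33 ± 0.11, limma adjusted p = 0.0425), a call kept only without control library 1 when single libraries were left out (adjusted p from 0.0139 to 0.121). The polyubiquitin gene UBB fell (1348 ± 1.87 TPM with BMH-21 and 2271 ± 146 TPM in controls, log2 change -0.75 ± 0.08, limma adjusted p = 3.99e-04).

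Members grouped by disease or binding went in both directions, and their counts of rises differed with and without control library 2. Of all genes tested, 23.3% rose and 12.9% fell, and without control library 2, 2818 of 12581 rose. Of 8 listed members mutated in Diamond-Blackfan anaemia, 1 fell (RPS10) and none rose, with log2 changes from -0.54 to 0.59. Without control library 2, 3 of them rose by limma. With all libraries, 4 rose as a share of the 40S total, a measure introduced below. On that measure 20.3% of all genes tested rose, a figure that is no neutral background, as explained there. Of 9 members described to bind MDM2, the ubiquitin ligase that free ribosomal proteins can inhibit, 2 fell (RPS3 and RPS14) and none rose, with log2 changes from -0.49 to 0.35. Without control library 2, 4 rose, and with all libraries 4 rose in share. None of the 4 zinc-binding members (RPS26, RPS27, RPS27A and RPS29) was called by limma with all libraries, while 2 rose without control library 2 and 2 rose in share, in both cases RPS27 and RPS27A. With all libraries, 0 of the members in these 3 groups were higher at an unadjusted p under 0.05. Among the 7 members with small nucleolar RNAs inside the gene on the same strand (GENCODE 29), 3 fell. Among the 21 others, 6 fell and 1 rose. The 19 genes with a TOP run had a median log2 change of -0.09 and the 4 without had -0.13.

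To ask which members changed their part of the small subunit transcripts, each was also measured as a share of the summed TPM of the 28 genes. These shares add up to 100%, so a fall in 1 member raises the others, and the measure says nothing of the level of the set. On this scale 10 members rose, 8 fell and 10 did not pass, or 35.7% and 28.6%, against 20.3% and 6.28% of 12531 genes put on the same scale and tested by limma. Scaling by the members' own sum takes out variation that they share, but not that of other genes. These all-gene shares are therefore no neutral background. Called members went from 10 in TPM to 18 in share, and all genes called went from 4519 to 3329. Shares did not overlap between groups for 11 of 28 members on the higher side and 11 of 28 on the lower side. Of all genes on that scale, 38.4% and 9.23% did the same, so the higher count was near the all-gene share. Between a BMH-21 and a control library, 10.9 to 15.2% of the 40S total sat in different genes, counted as the sum of all gains in share. That figure was 1.75 to 5.42% between BMH-21 libraries and 3.58 to 4.50% between control libraries. By body part, 4 of 12 head members rose and 3 fell in share, and 6 of 16 body and platform members rose and 5 fell. Without control library 2 the counts over all members were 11 higher and 7 lower. Without BMH-21 library 1 they were 6 and 2, and without BMH-21 library 3 they were 7 and 3. Of 12581 genes on that scale without control library 2, 2709 rose and 1523 fell. The all-gene counts were 1518 and 572 of 12480 without BMH-21 library 1, and 1711 and 576 of 12459 without BMH-21 library 3.

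**Figure D3:**
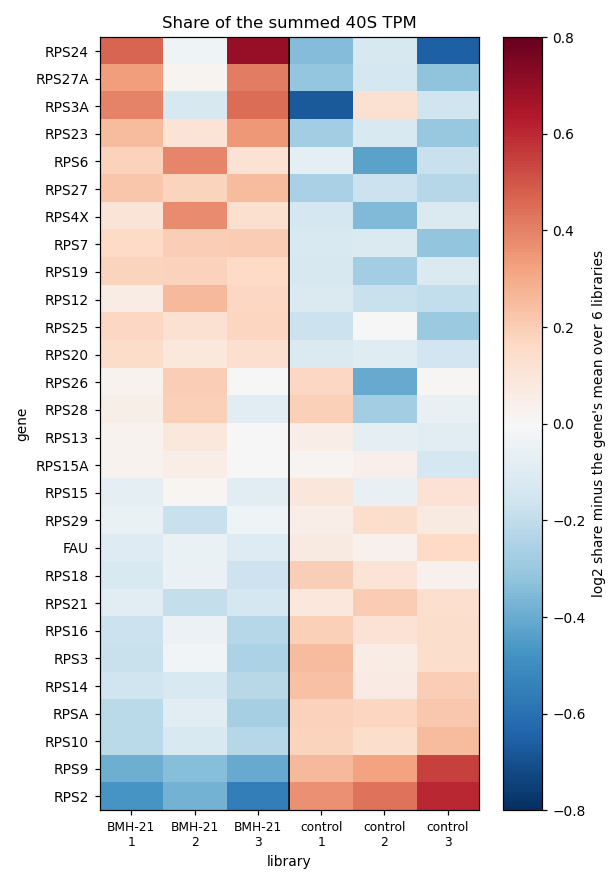
Share of each member in the summed 40S TPM, as the log2 share minus that gene's mean over the 6 libraries, with BMH-21 libraries left of control libraries and genes ordered by relative log2 change. RPS2 and RPS9 at the bottom are low in all 3 BMH-21 libraries and high in all 3 controls, and RPS3A near the top is high in control library 2 as well as in BMH-21 libraries 1 and 3.

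RPS27 held 10.2, 9.85 and 10.4% of the 40S total in BMH-21 libraries, against 7.29, 7.74 and 7.45% in controls. It was the most abundant member in all 3 BMH-21 libraries and ranked between 3 and 4 in controls (relative log2 change 0.44 ± 0.08, limma adjusted p = 0.00119). RPS2 held 4.12, 4.41 and 3.90%, against 7.38, 7.74 and 8.68% in controls. Its rank was between 7 and 10 with BMH-21 and between 1 and 3 in controls (relative log2 change -0.94 ± 0.09, limma adjusted p = 5.60e-06). RPS24 held 2.95, 2.08 and 3.45%, against 1.68, 1.95 and 1.36% in controls. Its groups no longer overlapped (relative log2 change 0.75 ± 0.17, limma adjusted p = 0.00563). RPS24 TPM divided by RPS2 TPM was 0.715, 0.473 and 0.886 with BMH-21, against 0.227, 0.252 and 0.156 in controls, or 3.26 times as high on average.

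Shares of RPS23, RPS27A, RPS6, RPS4X, RPS7, RPS19, RPS12 and RPS25 rose as well, with relative log2 changes from 0.31 (RPS25) to 0.51 (RPS27A). The rises of RPS24, RPS27A, RPS23, RPS6 and RPS27 were called whichever library was left out (largest adjusted p 0.0495, for RPS27A). With single libraries left out, RPS25 was called only without control library 2 and RPS12 only without control library 1 or 2. RPS7 was lost without BMH-21 library 1, BMH-21 library 3 or control library 3, RPS4X without BMH-21 library 2 and RPS19 without BMH-21 library 1. Shares of RPS2, RPS9, RPS10, RPSA, RPS14, RPS3, RPS16 and RPS21 fell, with relative log2 changes from -0.94 (RPS2) to -0.28 (RPS21). Of these falls, those of RPS2 and RPS9 were called with any library left out, RPSA was lost without BMH-21 library 1, and RPS10 without BMH-21 library 1 or 3. RPS3, RPS14 and RPS16 were lost without either of these and without control library 1, RPS14 and RPS16 also without control library 3, and RPS21 was called only without control library 1 or 3. FAU and RPS18, which fell in TPM, did not pass in share (limma adjusted p = 0.209 and 0.0792), and RPS21, which missed the test in TPM, passed (0.0233). RPS3A did not pass on either scale (0.0683 in share).

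**Figure D4:**
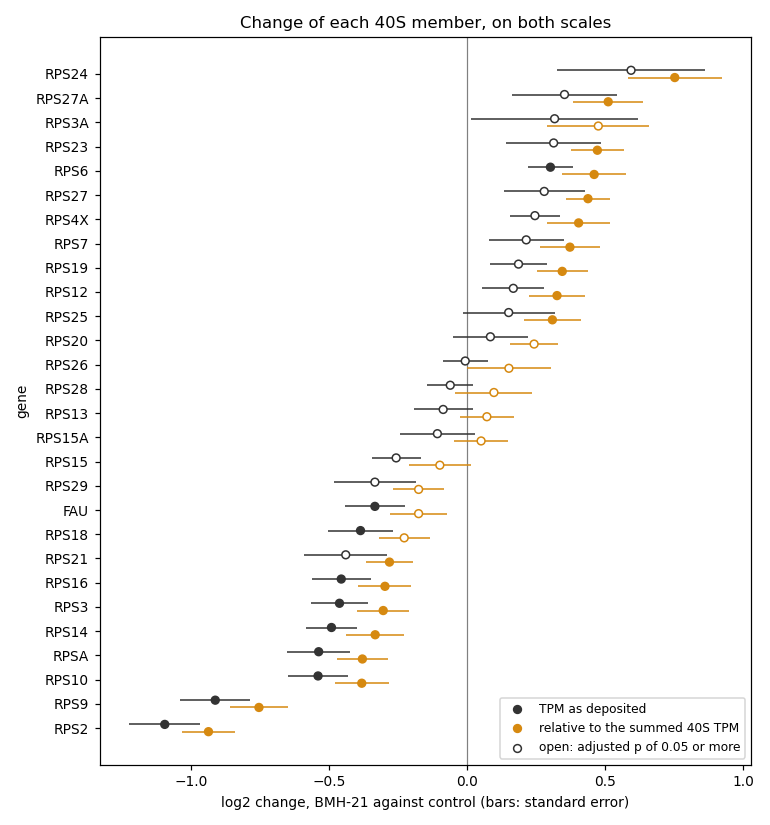
Log2 change of each member, BMH-21 against control, with TPM as deposited (dark) and relative to the summed 40S TPM (orange), bars giving the standard error and filled points an adjusted p under 0.05. The relative values lie about 0.16 above the deposited ones, with RPS24 at 0.59 and 0.75 at the top and RPS2 at -1.09 and -0.94 at the bottom.

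The direction of change went with the base composition of the genes. Members run from 42.7% (RPS3A) to 63.0% (RPS15) GC in the coding sequence (GENCODE 29). The 14 members of lowest GC content had a median log2 change of 0.23 and the 14 of highest GC content -0.41. Across the 28 members, which share the same 6 libraries, Spearman's correlation between GC content and log2 change was -0.70 and Pearson's r -0.72. Spearman's correlation was -0.65 over 47 genes of the 60S subunit and -0.10 over 10873 coding genes tested. All 9 genes that fell had a GC content of at least 52.8%, and RPS6, which rose, had 47.3%. RPS19, RPS28 and RPS15 departed from the trend, with 58.2, 62.3 and 63.0% GC and log2 changes of 0.19, -0.06 and -0.26.

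**Figure D5:**
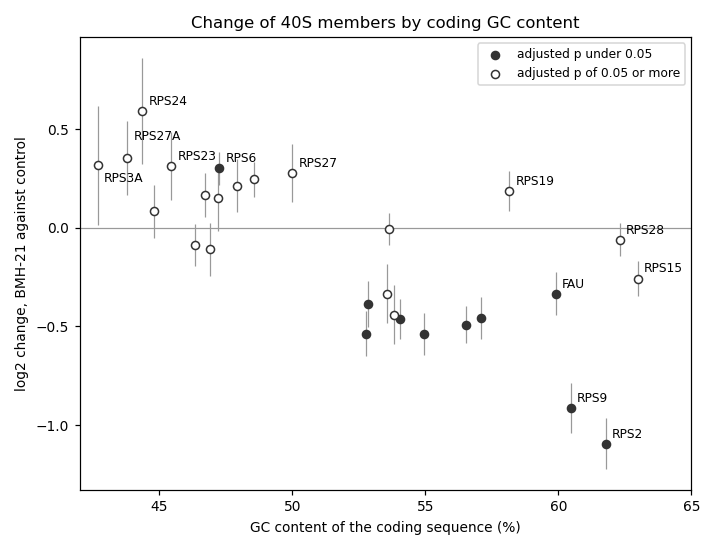
Log2 change of each of the 28 members, BMH-21 against control, by the GC content of its coding sequence, with standard errors as bars and called members filled. The 13 members up to RPS27 lie between -0.11 and 0.59, and the 15 to its right between -1.09 and 0.19, with RPS19 alone above 0 among these.

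Base composition also moved between libraries of the same group. Each library's distance from the mean of its group, taken over the members, went with GC content at Spearman correlations of -0.36, 0.48 and -0.58 for BMH-21 libraries 1 to 3 and 0.10, -0.68 and 0.56 for control libraries 1 to 3. Differences of a BMH-21 minus a control library had Spearman correlations with GC content from -0.77 to -0.29 over 9 pairs, which reuse the same 6 libraries. The sign of a pair within a group depends only on the order of its 2 libraries, so signs cannot be compared. By size, the 6 pairs within groups ran from 0.26 to 0.68, which overlaps the sizes between groups. With trends in GC content and length over all genes removed within each library, 9 members fell, 8 of them the same (RPS21 in place of FAU), and 6 rose, adding RPS19, RPS23, RPS24, RPS27 and RPS27A to RPS6, while the Spearman correlation over the members was -0.64. In share, 9 then rose and 3 fell (RPS2, RPS9 and RPSA). The part of library base composition in the members' changes was otherwise not tested.

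Genes that work with the small subunit are set here against the all-gene shares, 23.3% higher and 12.9% lower. Of 47 proteins of the 60S subunit, 12 fell and none rose, also before adjustment (limma, median log2 change -0.14), or 25.5% lower. The falls numbered 5 without BMH-21 library 1, BMH-21 library 3 or control library 3, 6 without BMH-21 library 2 and 7 with no filter on low values. Without control library 2, 3 rose, and without both libraries numbered 2, 13 rose. Of all genes tested, 2818 of 12581 and 3625 of 12598 rose in these settings. RPL3 had the largest fall among them (-1.12), and RPLP0, the highest, was at 6816 ± 53.3 TPM with BMH-21 and 8155 ± 929 TPM in controls without passing (adjusted p = 0.114 by limma). Of 16 other mRNAs known for a TOP start, 3 fell, or 18.8%, and 1 rose (median -0.15). HNRNPA1, an RNA-binding protein, fell (555 ± 30.8 TPM with BMH-21 and 1098 ± 207 TPM in controls, log2 change -0.97 ± 0.14, limma adjusted p = 0.00143). TPT1, the translationally controlled tumour protein, rose (3796 ± 204 TPM with BMH-21 and 2663 ± 423 TPM in controls, log2 change 0.52 ± 0.13, limma adjusted p = 0.0143). Its call was lost without BMH-21 library 1, BMH-21 library 3 or control library 3 and with median-of-ratios scaling. With any 1 of these 3 libraries left out, 1 of the list fell. EEF1A1, the most abundant of this list, was at 8400.5 ± 353 TPM with BMH-21 and 7303 ± 1293 TPM in controls without passing (adjusted p = 0.260 by limma).

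Among 14 genes that control TOP mRNAs, 2 fell, or 14.3%, and none rose, with 3 higher at an unadjusted p under 0.05 (limma, median 0.24). They were EIF4EBP1, an inhibitor of cap binding that mTOR switches off and also the highest of the list (228 ± 3.83 TPM with BMH-21 and 359 ± 22.8 TPM in controls, log2 change -0.65 ± 0.08, limma adjusted p = 6.01e-04), and MLST8, a subunit of the mTOR complexes (log2 change -0.34). Without BMH-21 library 1 or 3, without control library 3 or with a replicate block, 1 of the list fell. LARP1, which binds TOP starts, had a log2 change of 0.29 (limma adjusted p = 0.316). Of 13 partners and assembly factors of 40S proteins, 2 rose and none fell, with 1 lower at an unadjusted p under 0.05 (limma, median 0.11, and -0.06 with median-of-ratios scaling, where 1 rose and 3 fell). Without BMH-21 library 1 or 3, without control library 1 or 3, with a replicate block or with no filter, 1 rose. RIOK3, an atypical kinase of the pre-40S, rose (15.3 ± 1.95 TPM with BMH-21 and 8.18 ± 1.69 TPM in controls, log2 change 0.84 ± 0.17, limma adjusted p = 0.00690), as did PNO1, a pre-40S assembly factor (0.42), while PDCD2, a chaperone of RPS2 and the highest of the list, was at 114 ± 4.74 TPM with BMH-21 and 107 ± 10.9 TPM in controls. Of 6 tested genes on a list for the ubiquitin marks of 40S proteins, 2 rose and none fell, also before adjustment (limma). They were RNF14 (0.58) and RNF10, which marks RPS2 and RPS3 (0.55). Neither was called with median-of-ratios scaling, with a replicate block, with no filter, or without BMH-21 library 1 or 3 or control library 2. Without BMH-21 library 2, control library 1 or control library 3, 1 of the list rose. The highest of that list, G3BP1, was not called (-0.04).

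Of 19 tested initiation factors that load the 40S subunit onto mRNA, 4 fell, or 21.1%, and 1 rose (median -0.16). Without BMH-21 library 1 or 3, 1 fell. EIF3C, a core subunit of the eIF3 scaffold, had the largest fall (376 ± 21.7 TPM with BMH-21 and 499 ± 10.1 TPM in controls, log2 change -0.41 ± 0.08, limma adjusted p = 0.00523), and EIF3D, EIF3G and EIF3K fell too. EIF1, which guards start codon choice and is the most abundant of the list, rose (1134 ± 37.1 TPM with BMH-21 and 921 ± 68.3 TPM in controls, log2 change 0.30 ± 0.09, limma adjusted p = 0.0285), a call lost without any 1 BMH-21 library or control library 3. With median-of-ratios scaling 6 fell and none rose (0 also before adjustment). EIF3C has a near-identical copy in the genome, and its level is uncertain for that reason.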

How the data were processed

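TPM per gene symbol were deposited by the authors as a table with a row for each of 25662 genes and a column for each library. STAR, Salmon and GRCh38 stand in the submitters' processing notes, without versions or settings. Ribosomal RNA was depleted with Ribo-Zero and RNA copied with random hexamers, per the labels' protocols, while the labels also name polyadenylated RNA. Salmon shares reads among similar sequences, so genes with near-identical copies are uncertain.

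From these values, log2(TPM + 1) was fitted with limma 3.58.1 in R 4.3.3 (variance trend, two-sided, Benjamini-Hochberg) over genes averaging 1 TPM or more. The pseudocount understates changes of low genes, which members are not. The fit was repeated after scaling libraries to an equal summed 40S TPM. It was tested on simulated data. Alternatives were median-of-ratios scaling, quantile normalization, other pseudocounts and filters, a replicate block, libraries left out, and removal of GC and length trends. Members and lists were chosen with earlier results of these data known. All members could be named, and of other lists the highest gene, the largest called rise and fall and RPS27L; further named genes were chosen after their values were seen. Some genes of these lists are not reported here by name.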

Additional observations from a re-analysis of the deposited data

How the results depend on the processing

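Depth cannot be read from TPM. The falls of RPS2, RPS9, RPS10, RPSA and RPS14 kept direction and call under every alternative run in TPM, and those of RPS2 and RPS9 also in share. The count of members that rose in TPM (1) was 3 after quantile normalization, 0 after median-of-ratios scaling, 12 without both libraries numbered 2, 0 with a replicate block and 6 with GC and length trends removed, an alternative chosen after seeing the data. All genes that rose numbered 3625 of 12598 without both libraries numbered 2 and 3432 of 11791 with GC and length trends removed. Leaving out single libraries, members that rose ran from 0 to 9, members that fell from 5 to 11, all genes called from 2796 to 4809, the members' median from -0.12 to -0.02, the log2 difference of the 40S sum from -0.24 to -0.05 and that of the 40S to 60S ratio from 0.04 to 0.06. In share, those that rose ran from 6 to 11, those that fell from 2 to 7 and all genes called from 2090 to 4232. The median was -0.27 with median-of-ratios scaling, and the 40S to 60S difference 0.00692 without RPS27. In share, 6 rose and 3 fell with the replicate block, and 3 fell with GC and length trends removed. Libraries of the same number deviated from their group means with correlations of -0.04, -0.34 and -0.08 over all genes tested. Over the members the correlations were -0.63, -0.85 and -0.51. With 3 libraries in a group these values cannot decide whether the numbers pair the samples. RPS6, FAU, RPS3, RPS16 and RPS18 lost their calls in TPM without BMH-21 library 1, and likewise without BMH-21 library 3; the cause was not tested.

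Signs turned only for values that did not pass in either setting. With median-of-ratios scaling RPS12, RPS19, RPS20 and RPS25 were at -0.030, -0.011, -0.11 and -0.047, and PDCD2 at -0.10. Quantile normalization gave RPS15A 0.00712 and RPS26 0.075. Without both libraries numbered 2, RPS13, RPS15A and G3BP1 were at 0.040, 0.078 and 0.16. With GC and length trends removed, RPS26, RPS28 and AURKAIP1 were at 0.066, 0.070 and 0.066, and RPS15 at 0.036 in share. Leaving out single libraries, values ran from -0.15 to 0.00802 for RPS13, from -0.20 to 0.036 for RPS15A, from -0.058 to 0.036 for RPS26 and from -0.17 to 0.10 for G3BP1, and in share from -0.00608 to 0.083 for RPS15A, from -0.011 to 0.27 for RPS26 and from -0.017 to 0.22 for RPS28.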

Other observations

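The mitochondrial ribosome has a small subunit of its own, built from nuclear genes. Of 32 such genes, 6 rose and 6 fell (limma, adjusted p under 0.05, median log2 change 0.05), or 18.8% each way, against 23.3% higher and 12.9% lower over all genes tested. Without BMH-21 library 1 or 3, 2 rose and 2 fell, and with the replicate block 3 rose and 2 fell. MRPS33 had the largest rise, at 109.7, 91.8 and 121 TPM with BMH-21, against 58.7, 79.0 and 53.4 TPM in controls (log2 change 0.76 ± 0.16, limma adjusted p = 0.00844). All BMH-21 libraries were above all controls, and the call was lost with median-of-ratios scaling. MRPS34 had the largest fall, at 128, 127 and 122 TPM with BMH-21, against 176, 193 and 195 TPM in controls (log2 change -0.58 ± 0.08, limma adjusted p = 0.00114). AURKAIP1, the most abundant of the list, was at 261 ± 7.71 TPM with BMH-21 and 275 ± 27.6 TPM in controls and was not called. Median-of-ratios scaling left 1 gene higher and 8 lower. The TOP start was found in 5 of 25 of these genes with a single RefSeq start.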
